A study of Mus musculus with 2 samples.

Results

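The nuclear genes of the mitochondrial respiratory chain and ATP synthase were examined in 2 RNA sequencing libraries of mouse bone marrow-derived macrophages. The genes were taken from the count table by symbol: names that begin with Nduf, Uqcr, Cox4, Cox5, Cox6, Cox7, Cox8 or Atp5, together with Sdha, Sdhb, Sdhc, Sdhd, Cyc1 and Cycs. The rule found 96 of the 22060 genes in the table, with 95 distinct symbols because Atp5o is listed under 2 identifiers. Complex I had 36 subunit genes, complex II 4, complex III 9, complex IV 20 and complex V 18. The 8 Ndufaf genes, which encode assembly factors of complex I and no subunits, and Cycs, the mobile carrier cytochrome c, were kept apart. Ndufa4 and its isoform Ndufa4l2 were placed with complex IV, where the Ndufa4 protein is now assigned.

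Both libraries came from C57BL/6 mice aged 8 weeks. Marrow cells were grown with M-CSF, which turns marrow progenitors into macrophages, over 7 days and were left untreated (labelled 0 h). One library was wild-type (WT). The other (T403A) was from cells with that substitution in STAT2, a transcription factor of the type I interferon response. The labels do not say how the allele was made, whether it was homozygous, or whether animals were pooled. With 1 library per group there is no replicate check and no p-value, and each value compares these libraries only.

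The respiratory chain passes electrons from NADH (complex I) or succinate (complex II) through ubiquinone, complex III and cytochrome c to oxygen at complex IV. Complexes I, III and IV pump protons across the inner mitochondrial membrane, and complex V uses the gradient to make ATP. Most subunits are encoded in the nucleus and imported, but complexes I, III, IV and V also hold subunits encoded by mitochondrial DNA. The supply of both gene sets therefore has to be matched. Macrophages shift between respiration and glycolysis as they are activated, and complexes I and II are known sources of signalling oxidants and metabolites in these cells.

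The count totals were 16033032 in WT and 18658381 in T403A. Levels are in CPM, counts expressed against a library total that was adjusted by TMM scaling. The measured genes were the 11199 whose counts in both libraries added up to 20 or more. Each ratio is T403A to WT and carries an exact 95% counting interval, which covers counting error only. A gene was called higher or lower if it differed by 1.5-fold or more with an interval that excluded 1. Stat2 had 5641 counts in WT and 1683 in T403A, or 376 and 84.4 CPM, a ratio of 0.22 (interval 0.21 to 0.24); a substitution need not change the count, so this does not check the labels. All 8 macrophage markers were present, with a summed level of 50319 (WT) and 39368 CPM (T403A), and 3 of them (Adgre1, Cd14 and Itgam) were called lower. The summed neutrophil, lymphocyte, erythroid, stromal and muscle or adipose markers were each at or below 11.3 CPM in either library. Ly6g, Elane, Cd3e, Acta1 and Myh4 were among those with no count. Of 5 measured neutrophil markers, S100a9 (28 counts in WT and 77 in T403A) and Ltf (25 and 64) were called higher. Camp (22 and 10) was called lower. Of 3 measured stromal markers, Pdgfrb (41 and 15) was called lower. The 5 proliferation markers, among them Mki67 and Top2a, summed to 75.5 (WT) and 414 CPM (T403A), and all 5 were called higher; their part in the results below was not tested. In bulk RNA, fewer cells of a type and less RNA per cell cannot be told apart.

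Of the 96 genes, 87 were measured, 4 had no count in either library and 5 had fewer than 20 counts in all. The call found 2 of the 87 higher in T403A (Atp5k and Ndufaf7) and 3 lower (Cycs, Cox7a1 and Ndufa5). Over all measured genes 13.5% were called higher and 10.8% lower, so these genes were called in smaller shares than the table as a whole. The median log2 ratio of the 87 was 0.02, beside 0.01 over all measured genes. Their central spread was narrower: the distance from the 25th to the 75th percentile was 0.31 on the log2 scale for the 87 and 0.60 for all measured genes. Because abundant genes have less counting error, the share close to 1 was computed for genes averaging 10 CPM or more. There, 88.2% of 68 respiratory chain genes had a log2 ratio within 0.32 of 0, against 60.6% of 8182 genes. In sum the measured genes took 4153 (WT) and 4287 CPM (T403A), a ratio of 1.03 (interval 1.02 to 1.04).

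**Figure D1:**
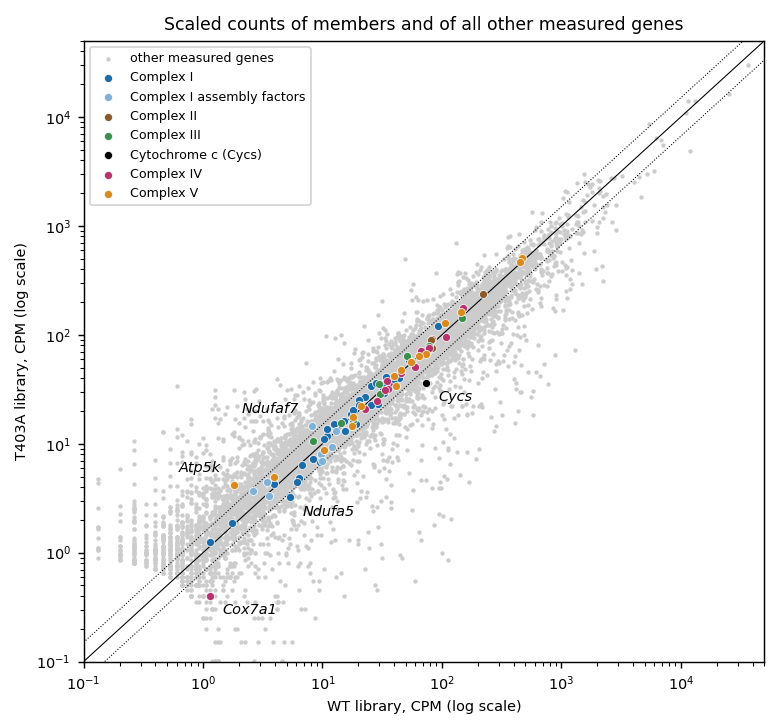
Scaled counts of the 87 measured respiratory chain genes (coloured by complex) and of the other measured genes (grey), WT on the x axis and T403A on the y axis, in CPM on log scales. The solid line marks equal levels, the dotted lines a ratio of 1.5-fold; genes with a count of 0 in a library are not drawn. Most coloured points lie between the dotted lines, and the 5 called genes are labelled.

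The regulatory sequence of the called genes is shown first, because Cycs and Atp5k differed in opposite directions while both carry the same motif. Nuclear respiratory factor 1, encoded by Nrf1, is known to bind the palindrome-like letters GCATGCGC in many promoters of this pathway. The sequences upstream of Cycs and Atp5k (called lower and higher) and of Cox7a1 (lower) are from RefSeq promoters on GRCm38.p6, read 5′ to 3′ on the gene's strand. Capitals mark the Nrf1 motif and the cyclic AMP response element TGACGTCA, both searched on both strands.
Cycs, chr6:50566570-50566819, minus strand: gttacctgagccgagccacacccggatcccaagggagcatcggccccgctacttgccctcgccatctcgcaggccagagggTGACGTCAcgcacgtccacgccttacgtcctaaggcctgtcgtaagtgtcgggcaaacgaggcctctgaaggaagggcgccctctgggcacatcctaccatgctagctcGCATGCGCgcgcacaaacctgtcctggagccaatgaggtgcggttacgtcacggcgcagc
Atp5k, chr5:108434439-108434649, minus strand: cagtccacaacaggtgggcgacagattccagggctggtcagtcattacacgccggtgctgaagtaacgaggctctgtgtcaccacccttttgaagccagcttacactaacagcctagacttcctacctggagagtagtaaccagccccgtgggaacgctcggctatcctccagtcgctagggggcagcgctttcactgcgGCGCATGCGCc
Cox7a1, chr7:30183921-30184153, plus strand: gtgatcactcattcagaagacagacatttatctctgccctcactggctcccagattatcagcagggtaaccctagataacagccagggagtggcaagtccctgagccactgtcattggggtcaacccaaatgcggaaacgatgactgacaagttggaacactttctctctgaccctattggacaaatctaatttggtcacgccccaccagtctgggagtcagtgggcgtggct
In Cycs the Nrf1 motif began 60 bases and the cyclic AMP response element 169 bases upstream of the RefSeq start. In Atp5k 2 overlapping matches to the Nrf1 motif began 50 and 48 bases upstream of the RefSeq start. The start of the main annotated transcript lies 49 bases upstream of the RefSeq start in Atp5k and 27 bases upstream in Cox7a1. The Atp5k matches therefore lie at that annotated start, and the Atp5k and Cox7a1 sequences shown run a few bases past it. The Cox7a1 window held neither motif.

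Cycs, cytochrome c, carries electrons from complex III to complex IV and is also the protein that triggers caspase activation when it leaves the mitochondrion. It lies on the minus strand of chromosome 6 (ENSMUSG00000063694, chr6:50562563-50566538, GRCm38). It had 1093 counts in WT and 722 in T403A, or 72.9 and 36.2 CPM, a log2 ratio of -1.01 (interval -1.15 to -0.87). Of the 5 called genes it had the most counts. Some 28.5% of the 50-base stretches of its main transcript also occur in other genes, most often Gm10053, so reads could be split between them. Its neighbours in the electron path did not share the difference: Cyc1, the cytochrome c1 subunit of complex III that hands electrons to it, was at 55.9 (WT) and 56.8 CPM (T403A) (log2 ratio 0.02, interval -0.11 to 0.15). Hccs, the enzyme that attaches heme to both cytochromes, was at 24.1 and 22.0 CPM (log2 ratio -0.13, interval -0.34 to 0.07), but 25.9% of its exon bases overlap another gene.

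Atp5k encodes subunit e, a small membrane subunit at the interface of paired ATP synthases (ENSMUSG00000050856, chr5:108433244-108434448, minus strand). It had 27 counts in WT and 84 in T403A, or 1.80 and 4.21 CPM, a log2 ratio of 1.21 (interval 0.59 to 1.91). Ndufaf7 encodes a methyltransferase that acts during complex I assembly (ENSMUSG00000024082, chr17:78937136-78948052, plus strand). It had 122 counts in WT and 292 in T403A, or 8.13 and 14.6 CPM, a log2 ratio of 0.85 (interval 0.54 to 1.17). Ndufa5, an accessory subunit of the complex I peripheral arm (ENSMUSG00000023089, chr6:24518666-24528013, minus strand), was lower, with 80 counts in WT and 64 in T403A, or 5.33 and 3.21 CPM. Its log2 ratio was -0.73 (interval -1.23 to -0.24), and the call was lost when libraries were scaled by their totals alone. Cox7a1, the heart and muscle isoform of a complex IV subunit (ENSMUSG00000074218, chr7:30184144-30186078, plus strand), had 17 counts in WT and 8 in T403A, or 1.13 and 0.40 CPM. Its log2 ratio of -1.45 had a wide interval, -2.92 to -0.21. None of the 5 called genes had exons that overlap another annotated gene.

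**Figure D2:**
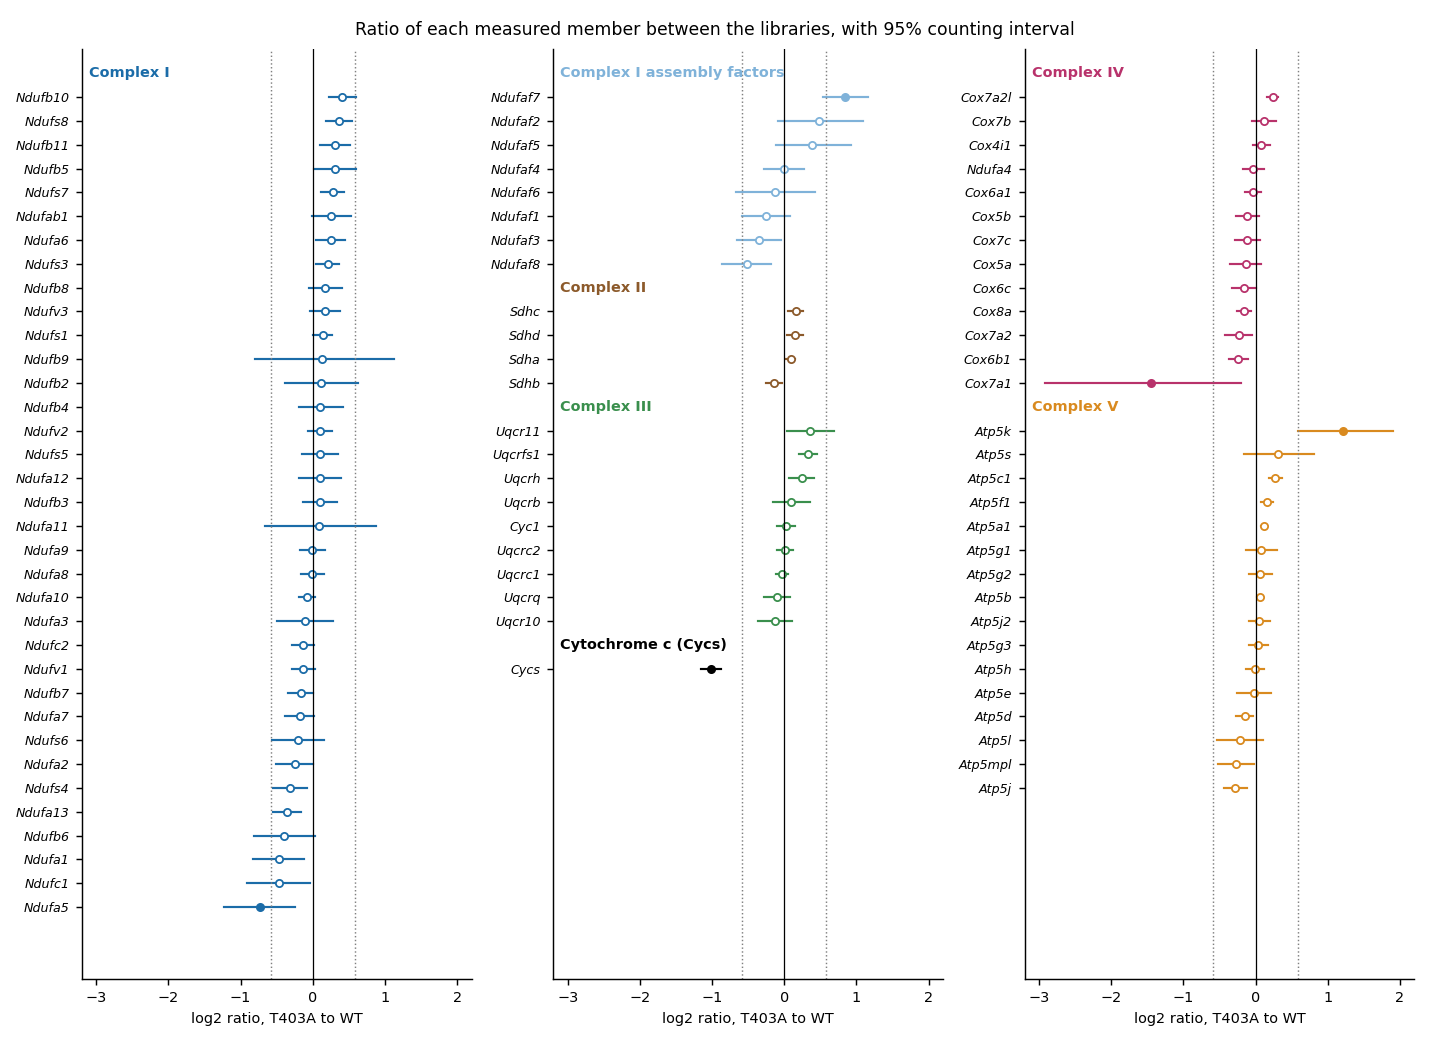
The log2 ratio, T403A to WT, of each measured gene (points) with its 95% counting interval (lines), by complex, with 1 complex I gene not drawn; filled points are the 5 called genes and dotted lines mark 1.5-fold. The 11 widely expressed complex IV subunits and the complex II subunits cluster near 0, while the weakly expressed genes have the widest intervals.

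Complex I oxidises NADH. Its 36 subunit genes had a median log2 ratio of 0.10, with 20 ratios above 1 and 16 below; 9 intervals lay wholly above 1 and 5 wholly below. Over all measured genes, 3506 of 11199 intervals lay above 1 and 3472 below. In sum complex I took 858 (WT) and 904 CPM (T403A).

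The 7 core subunits hold the flavin, the iron-sulfur clusters and part of the quinone site. None was called, but 6 of 7 ratios were above 1 and 5 intervals excluded 1, all on the T403A side. Ndufs8, an iron-sulfur subunit, was at 28.0 (WT) and 36.0 CPM (T403A) (log2 ratio 0.36, interval 0.19 to 0.54), and Ndufs7, which carries the last cluster before quinone, at 34.0 and 41.1 CPM (0.27, interval 0.11 to 0.44). Smaller ratios came from Ndufs3, at 34.0 and 39.2 CPM (0.21), and from Ndufs1, the largest subunit with several clusters, at 53.4 and 58.7 CPM (0.14). Ndufv2 was at 32.6 and 35.0 CPM (0.10, interval -0.07 to 0.27). Ndufv1, the flavin-binding subunit where NADH is oxidised, was below 1 at 39.3 and 35.9 CPM (-0.13, interval -0.29 to 0.03).

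The accessory subunits surround this core. The 13 Ndufa and Ndufab genes of complex I had a median log2 ratio of -0.08 and summed to 285 (WT) and 271 CPM (T403A), whereas the 12 Ndufb and Ndufc genes, most of them in the membrane arm, had a median of 0.11 and summed to 196 and 206 CPM. No test of the difference between these groups was made. With library-total scaling the Ndufa median changes sign, because every log2 ratio then moves up by 0.19. The highest ratio in complex I was that of Ndufb10, a membrane arm subunit, at 25.3 and 33.6 CPM (log2 ratio 0.41, interval 0.23 to 0.60). After Ndufa5, the lowest were Ndufc1, at 6.13 and 4.41 CPM, and Ndufa1, at 9.47 and 6.82 CPM (both -0.47). Ndufa13, also named GRIM-19, was at 29.3 and 22.9 CPM (-0.36, interval -0.55 to -0.16), but 29.98% of its exon bases overlap another gene.

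The 8 Ndufaf assembly factors were expressed at lower levels and varied more. Ndufaf7 was called higher, Ndufaf2 (2.60 and 3.66 CPM) and Ndufaf5 (3.40 and 4.46 CPM) had ratios above 1 with intervals that included it, and Ndufaf8 (9.87 and 6.87 CPM) and Ndufaf3 (11.9 and 9.33 CPM) had intervals below 1. Their median log2 ratio was -0.06, and in sum they were at 62.3 (WT) and 63.4 CPM (T403A). Exons of another gene cover 65.6% of Ndufaf2.

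Complex II, succinate dehydrogenase, links the citric acid cycle to the chain and has no subunit from mitochondrial DNA. All 4 genes had a log2 ratio within 0.32 of 0. Sdha, the flavoprotein that oxidises succinate, was at 222 (WT) and 236 CPM (T403A) (log2 ratio 0.09, interval 0.03 to 0.15). Sdhb, the iron-sulfur subunit, was at 82.7 and 75.2 CPM (-0.14, interval -0.25 to -0.03), the only one of the 4 with a ratio below 1. The membrane anchors Sdhc and Sdhd were at 82.4 and 92.0 CPM (0.16, interval 0.05 to 0.26) and at 80.9 and 89.7 CPM (0.15, interval 0.04 to 0.26).

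Complex III passes electrons from ubiquinol to cytochrome c. Its 9 genes had a median log2 ratio of 0.02, with none called, and summed to 432 (WT) and 450 CPM (T403A). The core proteins Uqcrc1 (146 and 144 CPM, log2 ratio -0.03) and Uqcrc2 (78.6 and 79.1 CPM, 0.01) were nearly level between the libraries. Uqcrfs1, the Rieske iron-sulfur protein, differed more, at 50.8 (WT) and 63.8 CPM (T403A) (0.33, interval 0.20 to 0.46). The highest ratio among the small subunits was that of Uqcr11, at 8.33 and 10.7 CPM (0.36, interval 0.03 to 0.69), and the lowest that of Uqcr10, at 18 and 16.4 CPM (-0.13, interval -0.37 to 0.11).

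Complex IV, cytochrome c oxidase, reduces oxygen. Of its 13 measured genes, 10 had a ratio below 1. Leaving out Cox7a1 and Cox7a2l, the 11 widely expressed subunits had a median log2 ratio of -0.12 and a range from -0.24 to 0.11, and they summed to 548 (WT) and 516 CPM (T403A), a ratio of 0.94 (interval 0.91 to 0.97). No gene of the 11 was called, and 3 of the 11 intervals excluded 1. These 3 were Cox6b1, which faces the cytochrome c side (59.3 and 50.1 CPM, -0.24), Cox7a2 (28.8 and 24.5 CPM, -0.23) and Cox8a (107 and 95.8 CPM, -0.17). Cox4i1, a nuclear subunit that joins early in assembly (66.7 and 70.6 CPM, 0.08), and Cox7b (34.4 and 37.3 CPM, 0.11) were the 2 above 1. The direction depends on scaling: by library totals the median of all 13 complex IV genes moved from -0.12 to 0.08, while the median over all measured genes moved from 0.01 to 0.20, since this scaling adds the same amount to every log2 ratio.

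Cox7a2l, whose protein has been described as joining complexes III and IV into supercomplexes, went the other way. It had 2254 counts in WT and 3531 in T403A, or 150 and 177 CPM (log2 ratio 0.24, interval 0.16 to 0.31). Per kilobase of main transcript it made up 74.99% of the summed level of Cox7a2, Cox7a1 and Cox7a2l in WT and 81.2% in T403A. Cox7a2 made up 23.5% and 18.3%. Whether the Cox7a2l protein of this mouse strain has that function was not tested. The RNA levels therefore say nothing about supercomplexes in these cells.

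Several complex IV subunits have tissue-restricted isoforms. Cox4i2 (lung), Cox7b2 and Cox8c (testis) had no count in either library; such a 0 is compatible with at most 3 counts, or 0.200 CPM (WT) and 0.150 CPM (T403A). The muscle isoform Cox6a2 had 7 counts in WT and 5 in T403A, the testis isoform Cox6b2 3 and 7, Cox8b 1 and 2, and the hypoxia-induced Ndufa4l2 2 and 0. Beside these, the ubiquitous forms Cox6a1 (1160 and 1506 counts), Cox6b1 (889 and 999) and Ndufa4 (685 and 890) held nearly all of each pair per kilobase of main transcript in both libraries; the lowest such share was 99.2%, for Cox6b1 in T403A.

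Complex V, ATP synthase, joins a soluble catalytic head (F1) to a membrane rotor. Its 16 measured genes had a median log2 ratio of 0.06 and summed to 1560 (WT) and 1648 CPM (T403A). The catalytic head was the most abundant part: Atp5a1 (alpha) was at 467 (WT) and 507 CPM (T403A) (log2 ratio 0.12, interval 0.08 to 0.16) and Atp5b (beta), which forms ATP, at 451 and 470 CPM (0.06, interval 0.01 to 0.11). Atp5c1, the gamma shaft that turns inside the head, was at 106 and 128 CPM (0.27, interval 0.18 to 0.37). Atp5d (delta) was at 73.5 and 66.2 CPM (-0.15, interval -0.27 to -0.03) and Atp5e (epsilon) at 18 and 17.7 CPM (-0.02, interval -0.26 to 0.21).

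In the stalk that holds the head still, Atp5f1 was at 144 and 161 CPM (0.16, interval 0.08 to 0.24) and Atp5h at 64.7 and 64.2 CPM (-0.01). Atp5j was at 40.9 and 33.6 CPM, the lowest ratio in complex V (-0.28, interval -0.44 to -0.12). Exons of Gabpa, on the opposite strand, cover 12.7% of the Atp5j exon bases, and the strand setting is not given. The c ring, the turning rotor, is encoded by 3 genes for the same mature protein, and their shares per kilobase of main transcript were close in both libraries. Atp5g1 gave 2.56% in WT and 2.61% in T403A, Atp5g2 52.4% and 52.96%, and Atp5g3 44.99% and 44.4%. The shares depend on the length used: by the deposited length Atp5g1 gave 7.94% and 8.08%, Atp5g2 44.5% and 44.99%, and Atp5g3 47.5% and 46.9%, so the order of Atp5g2 and Atp5g3 turned. All 50-base stretches of the Atp5g2 main transcript occur in another gene, so its count depends on how such reads were treated. Atp5o, the subunit that connects stalk and head, had 7 counts in WT and 9 in T403A under 1 identifier and none under the other. Other genes cover 47.9% and 100% of the exon bases of these identifiers, so the low counts say little about the level of this subunit.

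Compared per kilobase of the main annotated transcript, levels differed more between complexes than between libraries. The median was 22.5 CPM per kb in WT and 21.8 in T403A for complex I, 69.0 and 69.3 for complex II, 37.3 and 37.9 for complex III, 70.4 and 63.1 for complex IV and 64.1 and 60.2 for complex V. The Ndufaf assembly factors were lowest, at 4.24 in WT and 5.50 in T403A. Among the highest members per kilobase were Ndufc2 in complex I, Sdha and Sdhd in complex II, Uqcrc1 and Uqcrh in complex III, Cox8a and Cox7a2l in complex IV, and Atp5b and Atp5a1 in complex V. Within complexes, levels in WT ran from 1.61 to 63.9 CPM per kb in complex I and from 2.65 to 236 in complex V, but only from 26.0 to 76.4 in complex II. For 32 of the 96 genes the deposited length was at least 2 times that of the main transcript, and by the deposited length the medians in WT were 13.2 for complex I, 45.3 for complex II, 25.9 for complex III, 30.5 for complex IV and 19.2 for complex V. The rank of complexes II to V therefore depends on the length used, while complex I had the lowest median of complexes I to V by both.

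**Figure D3:**
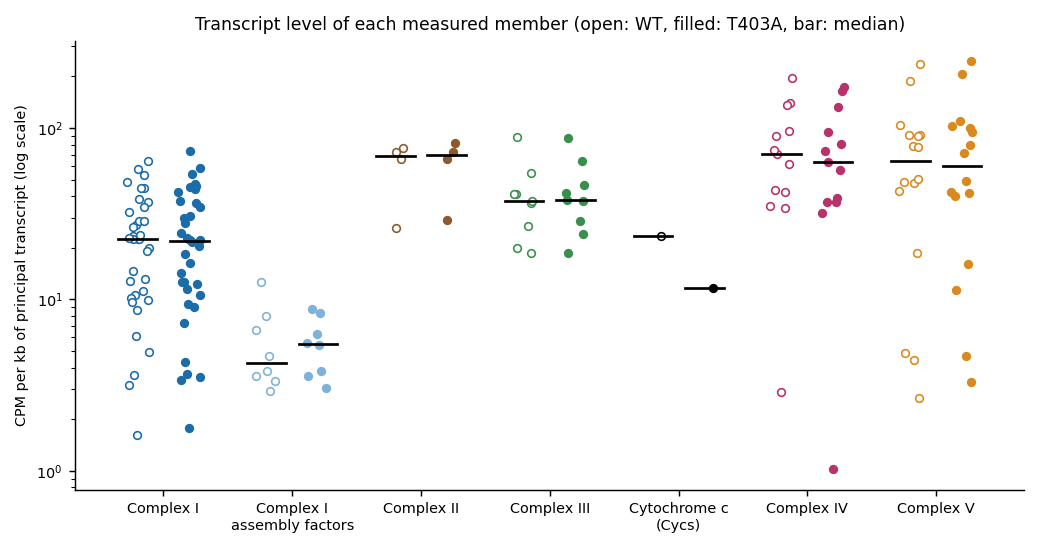
Level of each measured gene per kilobase of its main transcript (log scale), open points for WT, filled points for T403A, bars for the median of each complex. By the median, complex I lies below complexes II to V and above its assembly factors in both libraries.

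Shorter transcripts had somewhat lower ratios. Across the 87 measured genes Spearman's rho between log2 ratio and main transcript length was 0.19, a description over genes that share the same 2 libraries. The 49 genes with a main transcript under 1 kb had a median log2 ratio of -0.03 and the 38 longer ones 0.09. In complex IV the 11 genes under 1 kb had a median of -0.14 and the 2 longer ones 0.18; in complex V the 10 shorter genes had -0.02 and the 6 longer ones 0.14. In complex I the medians were 0.09 and 0.10. By deposited length, the 20 genes under 1 kb had a median of -0.13 and the 67 longer ones 0.06. Over all measured genes the medians were -0.08 for the 228 under 1 kb and 0.01 for the 10971 longer ones. The part of length in the lower complex IV ratios was not tested.

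The 13 subunits encoded by mitochondrial DNA complete complexes I, III, IV and V. Of these, 11 were measured; none was called, but 9 ratios and 7 intervals were above 1, and in sum they were at 20630 (WT) and 22992 CPM (T403A). Their median log2 ratio was 0.25, beside 0.02 for the nuclear genes. By complex, mitochondrial subunits of complex I summed to 5656 (WT) and 6770 CPM (T403A) (ratio 1.197, interval 1.19 to 1.21), and the nuclear ones had a ratio of 1.05 (interval 1.03 to 1.08). For complex III, mt-Cytb, the cytochrome b that holds both quinone sites, was at 1724 and 2295 CPM (ratio 1.33, interval 1.31 to 1.35), against a ratio of 1.04 (interval 1.01 to 1.07) for the nuclear genes. For complex IV the mitochondrial sum, nearly all mt-Co1, the catalytic subunit, had a ratio of 1.05 (interval 1.05 to 1.06) and the nuclear sum 0.99 (interval 0.97 to 1.02). For complex V only mt-Atp6 was measured, at 11.9 and 11.2 CPM. mt-Co2, mt-Co3, mt-Atp6, mt-Nd3 and mt-Nd4l had at most 695 counts in a library. They share nearly all of their 50-base stretches (97.99% or more) with other annotated genes. For mt-Co1 this share is 51.1% and for mt-Nd4 62.2%, whereas mt-Cytb, mt-Nd1 and mt-Nd6 share none. How RNA was selected is not given in the sources used here, and its part in the mitochondrial levels was not tested.

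**Figure D4:**
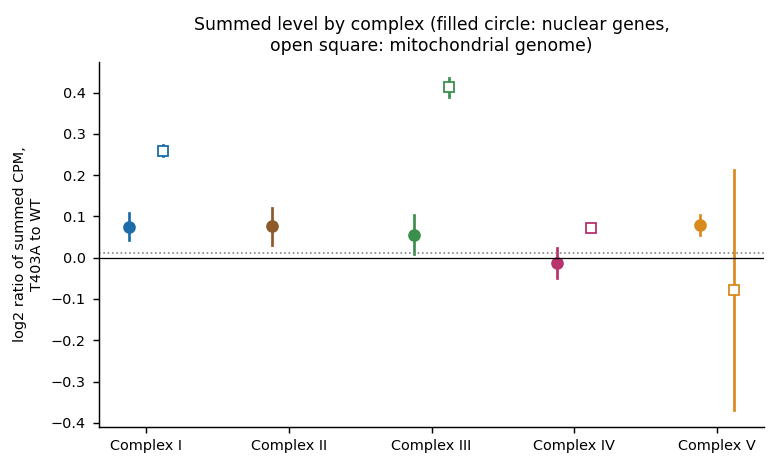
The log2 ratio of summed CPM, T403A to WT, for the nuclear genes (filled circles) and the mitochondrial genes (open squares) of each complex, with 95% counting intervals. The dotted line is the median over all measured genes. In complexes I, III and IV the mitochondrial sum has the higher ratio, and the complex V square rests on mt-Atp6 alone.

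The proteins that build the complexes include several called genes, in shares near those over all genes, so nothing is read from these counts. Of 52 listed assembly factors outside the naming rule, 46 were measured, 5 were called higher (10.9%, against 13.5% of all measured genes) and 4 lower (8.70%, against 10.8%), and the median log2 ratio was -0.03. The higher ones were Cmc2 (1.21), Coa6 (0.86), Cox11 (0.67, with 48.3% of its exon bases under another gene) and Coa4 (0.61), all of which serve complex IV. Sdhaf3 (0.80), which serves complex II, was also higher. These 5 genes rest on few counts: Cmc2 had 24 in WT and 75 in T403A, Coa6 68 and 165, and Cox11 30 and 64. Coa4 had 108 and 220, and Sdhaf3 40 and 93. The Cox11 interval ran from 0.04 to 1.36. Lower were Higd1a (-0.98), a small inner membrane protein induced by hypoxia, the complex IV factors Cox18 (-0.84) and Coa5 (-0.67), and Nubpl (-0.63), which delivers iron-sulfur clusters to complex I. Coa5 was the most abundant, at 196 (WT) and 123 CPM (T403A). Lrpprc, which stabilises mitochondrial mRNA, was the next, at 59.6 and 70.1 CPM (0.23).

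The regulators of mitochondrial biogenesis were measured for 20 of 21 genes, with a median log2 ratio of -0.04. Of the 20, 1 was called higher (5%, against 13.5% of all measured genes) and 2 lower (10%, against 10.8%). With so few genes, nothing is read from these shares. Ppargc1b, a coactivator of respiratory genes, was higher (5.93 (WT) and 9.43 CPM (T403A), log2 ratio 0.66, interval 0.30 to 1.05), and its relative Ppargc1a had 0 and 2 counts. Myc, a growth regulator whose protein binds the Cycs gene in other cells, was lower (12.1 and 5.67 CPM, -1.09, interval -1.44 to -0.74), as was Nrip1, a corepressor of respiratory genes (67.5 and 43.2 CPM, -0.64, interval -0.78 to -0.51). Of the regulators whose motifs were searched, Stat2 was lower, as given above, and none of the following was called. Yy1 was at 155 and 157 CPM (0.02), Nrf1 at 31.3 and 32.5 CPM (0.06), Creb1 at 94.9 and 91.8 CPM (-0.05) and Gabpa at 83.6 and 69.7 CPM (-0.26, interval -0.37 to -0.15). Gabpb1, a partner of Gabpa, was at 23.5 and 18 CPM (-0.39, interval -0.60 to -0.17). Tfam, which packages and transcribes mitochondrial DNA, was at 21.4 and 21 CPM (-0.03).

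Among promoters, 75 of the 95 symbols had a RefSeq window of 250 bases before to 50 after the start. For 67 of the 75 the RefSeq start lay within 100 bases of the main transcript start. It lay 3298 bases away for Atp5g2, which held the Nrf1 letters, and 521 bases away for Atp5j2, which held the YY1 letters. Of the 75 genes, 71 were measured. Of the 71, 18.3% held the Nrf1 letters GCATGCGC, against 5.90% of the 8938 measured genes with a window. The YY1 letters AAGATGGC were in 12.7% against 5.17%, the cyclic AMP response element in 7.04% against 3.36%, and the ETS letters CCGGAAG, bound by GABP, in 23.9% against 20.1%. For the interferon motifs the shares were 9.86% against 7.45% for the ISRE core GAAANNGAA, which the STAT2 complex binds, and 4.23% against 6.67% for the GAS element TTCNNNGAA. The hypoxia element ACGTG was in 22.5% against 26.3%. Both strands were searched, and matches may overlap each other. The median log2 ratio was 0.00 for the 13 genes with the Nrf1 letters and -0.01 for the 58 without, and -0.01 for both the 7 with and the 64 without the ISRE core. It was lower with than without the motif for YY1 (-0.11 for 9 genes against 0.02), the hypoxia element (-0.12 for 16 against 0.00), GAS (-0.15 for 3 against 0.02) and ETS (-0.03 for 17 against 0.04), and higher for the cyclic AMP response element (0.09 for 5 against -0.01). These medians are descriptions over few genes, and the differences were not tested.

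The YY1 letters were found in 7 of 32 measured complex I promoters (21.9%) and in none of the 11 of complex IV. The 7 complex I matches all lay on the gene's strand, from 23 to 39 bases after the RefSeq start, and the letters hold an ATG, the codon at which translation starts. They are shown because the match sits at nearly the same place relative to the RefSeq start of each gene. That start lies 164 bases from the main transcript start in Ndufs4 and 60 bases in Ndufs6. Counted from the main transcript start, the places therefore differ more. Capitals mark the 8 motif letters and the build is GRCm38.p6.
Ndufa3, chr7:3617384-3617413, plus strand: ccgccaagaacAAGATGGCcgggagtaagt
Ndufa9, chr6:126849097-126849126, minus strand: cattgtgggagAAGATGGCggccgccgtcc
Ndufb8, chr19:44555393-44555422, minus strand: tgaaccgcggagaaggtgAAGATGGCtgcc
Ndufc1, chr3:51408915-51408944, minus strand: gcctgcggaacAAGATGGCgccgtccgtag
Ndufs4, chr13:114388045-114388074, minus strand: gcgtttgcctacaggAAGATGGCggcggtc
Ndufs6, chr13:73328433-73328462, minus strand: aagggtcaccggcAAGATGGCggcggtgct
Ndufs7, chr10:80249462-80249491, plus strand: aggccgaggccAAGATGGCggcgctggcgg
Of these 7 genes, 3 had intervals that excluded 1, on different sides: Ndufs7 (log2 ratio 0.27) above, and Ndufc1 (-0.47) and Ndufs4 (18.9 and 15.2 CPM, -0.31, interval -0.55 to -0.07) below.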

How the data were processed

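The genes examined, and the related lists, were chosen with earlier results of these data known. Per the file headers, the authors deposited read counts (whole numbers) by Ensembl gene, with a gene length in bases. Tools in the submitters' processing notes are HISAT2, cutadapt 1.15, DESeq 1.30.0 and HTSeq 0.9.1, with the build GRCm38. The deposited length (a unit other than a measurement of expression) equals the union of GENCODE M21 exons for 96.8% of genes. The strand setting and the handling of reads with several matches: not given in the sources used here. Of the 22060 genes, 21969 were given a symbol by identifier.

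Counts were scaled with TMM (edgeR 4.0.16, R 4.3.3). Ratios carry exact Clopper-Pearson intervals (scipy 1.17.1), and log2 ratios use a prior count of 0.5 per library. No test across samples was possible, and edgeR was used for scaling only. Named were the called genes, Stat2, Cycs, Cyc1, core or catalytic subunits, the highest and lowest of each complex, isoform pairs and the called and most abundant genes of related lists; Hccs, Ndufa13, Ndufc1, Ndufa1, the assembly factors Ndufaf2, Ndufaf3, Ndufaf5 and Ndufaf8, the stalk subunits, Cox7b, Ndufs4, mt-Cytb, mt-Atp6, the motif regulators, Gabpb1 and Tfam were added after their values were seen. For 3 genes of these lists no value is reported here. Alternatives were library totals, DESeq2 1.42.0 size factors, other folds and count filters, subunits only, and, added after seeing the data, leaving out genes whose exons overlap others by at least 25%. Main transcripts, overlaps and shared 50-base stretches come from GENCODE M21.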

Additional observations from a re-analysis of the deposited data

How the results depend on the processing

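Scaling by library totals moved every log2 ratio up by 0.19. It gave 4 genes called higher (Atp5k, Ndufaf2, Ndufaf7 and Ndufb10) and 2 lower (Cox7a1 and Cycs), a median of 0.21 for the 87 genes, 0.29 for complex I, 0.31 for complex II, 0.21 for complex III, 0.076 for complex IV and 0.25 for complex V, and a summed ratio of 1.18. The median of all genes moved by the same amount, by construction; over all measured genes 20.4% were then called higher and 7.95% lower, against 13.5% and 10.8%. DESeq2 size factors kept all 5 calls. Counting subunits only left out the Ndufaf genes, Cycs, Atp5s, Cox7a2l, Ndufa4 and Ndufa4l2. Of the 75 measured genes that remained, 1 was called higher (Atp5k) and 2 lower. A 2-fold threshold left 1 higher and 2 lower, and a threshold of 0.32 on the log2 scale gave 7 higher and 8 lower. Shares over all measured genes were not computed at these 2 thresholds, so nothing is read from these counts about the respiratory chain genes. The complex IV median changed sign under library totals. So did uncalled ratios just below 1, for example those of Ndufc2, Ndufv1, Sdhb, Uqcrc1, Uqcr10, Cox8a, Atp5d and Atp5e. The same holds for any other gene whose log2 ratio lies below 0 by less than the shift of 0.19. The 5 called genes kept their direction under each scaling. No paired analysis was possible because each group has 1 library. Depth limits the weak genes: Cox7a1, Ndufa5 and Atp5k rest on at most 84 counts per library.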

Other observations

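Of 23 measured carriers and enzymes that work beside the chain, 6 were called lower (26.1%, against 10.8% of all measured genes) and 1 higher (4.35%, against 13.5%). The list was chosen with earlier results known and the genes named from it after their values were seen, so no comparison with the subunits is drawn. The median log2 ratio was -0.21. Acod1, which makes itaconate, an inhibitor of succinate dehydrogenase, had 33658 counts in WT and 6269 in T403A (log2 ratio -2.84, interval -2.87 to -2.80). Sod2, the mitochondrial superoxide dismutase, had 16492 and 7126 counts (-1.62, interval -1.66 to -1.58), and Gpd2, which feeds electrons from glycerol phosphate into ubiquinone, had 2188 and 877 counts (-1.73, interval -1.84 to -1.62). AA467197, a paralogue of the complex IV protein Ndufa4, had 41 and 7 counts (-2.88, interval -4.36 to -1.79), while Ndufa4 itself had 685 and 890 (-0.03). In ubiquinone synthesis Coq2 (-0.86) and Pdss1 (-0.61) were lower and Coq9 (0.71) was higher. The ADP/ATP carriers Slc25a4 (0.01) and Slc25a5 (-0.13) and the phosphate carrier Slc25a3 (0.23), which supply ATP synthase, were not called.

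Of 2 complex V proteins that the naming rule does not reach, Atpif1, the inhibitor of ATP synthase, was higher, with 36 counts in WT and 100 in T403A (log2 ratio 1.05, interval 0.50 to 1.66), and 33.7% of its exon bases lie under another gene. Usmg5, a small membrane subunit next to subunit e, was at 8.93 and 7.97 CPM (-0.16, interval -0.50 to 0.18).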
